A study of Gallus gallus with 32 samples.

Results

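The genes described here are those of vitamin A (retinoid) metabolism and retinoic acid signalling that the count table holds under a symbol: 7 of the 9 asked for, out of 24881 genes. They were found by matching the gene symbols that accompany the deposited tables. ALDH1A1, ALDH1A2, BCO1, CYP26A1 and RARB were listed under these names, ALDH1A3 under its synonym ALDH6 and CRABP1 as CRABP-I. CYP26B1 and RBP4 matched no symbol and were not analysed here. All 7 genes passed the filter on low counts in every comparison.

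Retinoic acid is the hormone-like product of vitamin A. BCO1 cleaves beta-carotene into retinal, the ALDH1A enzymes oxidise retinal to retinoic acid, CRABP1 binds retinoic acid in the cytoplasm, RARB is a nuclear receptor through which it regulates transcription, and enzymes of the CYP26 family degrade it. In the hypothalamus of seasonal rodents, retinoic acid production changes with day length, and in the mouse brain ALDH1A2 is known as an enzyme of the meninges, the membranes around the brain.

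The birds were male Ross 308 broilers, a commercial fast-growing chicken hybrid, with no genetic alteration and no drug treatment. Both growth groups were fed ad libitum on starter, grower and finisher feeds in turn, so the ages differed in feed and age and feed cannot be told apart, and feed was withdrawn for some hours before slaughter. The study split them by body weight after the second week into a high growth rate (HGR, labelled heavy) and a low growth rate (LGR, labelled light) group, which were kept in separate pens, so growth group and pen cannot be told apart. They were killed at 3 weeks (day 22 in the labels) or 6 weeks (day 42 in the labels; the methods of the study give a later day, and the sample titles carry other numbers for both ages). RNA of the hypothalamus, the brain region that governs appetite and the pituitary, and of the pituitary gland was sequenced from 4 birds of each growth group at each age, which makes 32 libraries from 16 birds, both tissues of a bird being sequenced. The comparisons ask how growth rate, age and tissue bear on these genes.

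Total counts were 13845756 to 17536175 per hypothalamus library and 6231478 to 18256297 per pituitary library. The tissue labels matched their markers: 9 of 9 hypothalamus markers were lower and 7 of 7 pituitary endocrine markers higher in the pituitary, all past the threshold used below. Within the pituitary libraries alone, 5 of the 9 hypothalamus markers passed the filter on low counts. Within the hypothalamus libraries alone, 6 of the 7 endocrine markers did. The remaining markers could pass only through the tissue where they are high. The direction of their calls was fixed in advance and says nothing about the labels. One library stood apart, the pituitary of LGR 3-week replicate 4. It had the total of 6231478, against 14351918 or more in the other pituitary libraries, and the highest summed level of the 7 endocrine markers, 173138 CPM against 60510 to 117824. The results that it moved most are given with and without it.

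Values are counts per 1000000 counts of the library (CPM), with TMM scaling over all 32 libraries. A gene was called where edgeR's quasi-likelihood test over all genes gave a p, adjusted by the Benjamini-Hochberg method, no higher than 0.05 and the groups differed 1.5-fold or more. Log2 differences are given with an approximate standard error (SE), the size of the difference over the square root of edgeR's quasi-likelihood F statistic. The p-values measure the spread between the 4 birds of each group. No transcript lengths accompany the counts, so levels are compared between groups and not between genes. In whole tissue, fewer cells of a type and less RNA per cell cannot be told apart.

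**Figure D1:**
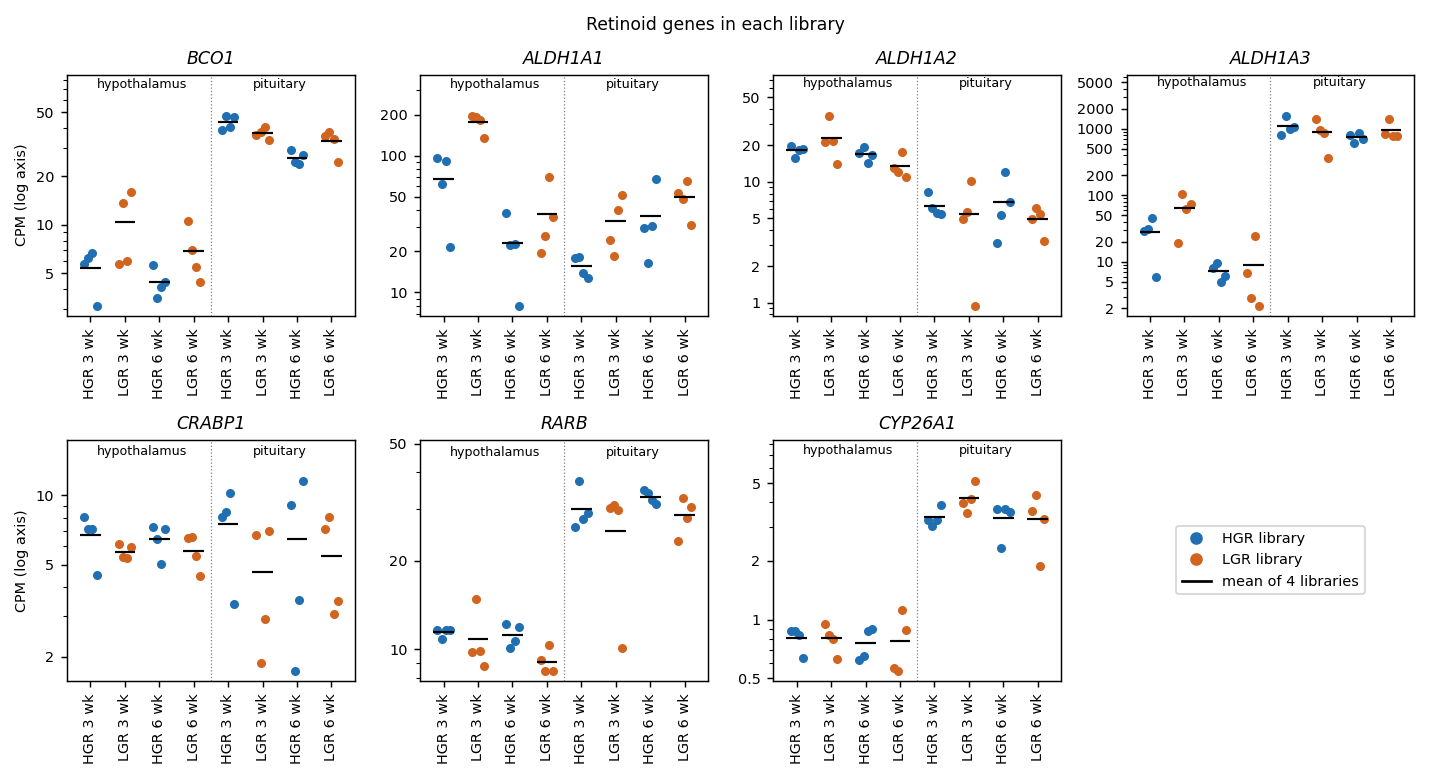
CPM (log axis) of the 7 retinoid genes in each of the 32 libraries, by tissue, growth group and age, with the mean of each group of 4 as a bar. ALDH1A3, BCO1 and CYP26A1 were higher in all 16 pituitary than in all 16 hypothalamus libraries, and ALDH1A1 in the hypothalamus was highest in the 4 LGR libraries at 3 weeks (135 to 197 CPM).

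Between pituitary and hypothalamus 6 of the 7 retinoid genes were called. ALDH1A3, BCO1, CYP26A1 and RARB were higher in the pituitary, and ALDH1A1 and ALDH1A2 were lower. This is to be read against 53.5% of all 16169 genes tested, of which 25.7% were called higher and 27.8% lower in the pituitary. The comparison used all 32 libraries, with age and growth group in the model, and did not pair the 2 tissues of a bird. With the bird as a block, 4 members were again called higher and 2 lower in the pituitary.

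ALDH1A3, a retinal dehydrogenase that makes retinoic acid, showed the widest tissue difference of the 7. Its gene (ENSGALG00000033365) lies on chromosome 10 from 17449825 to 17484802 in the coordinates of the deposited table, which names no genome build. Its level ran from 370 to 1590 CPM (median 852) in the pituitary, where the lowest value was 615 CPM without LGR 3-week replicate 4, and from 2.17 to 104 CPM (median 14.5) in the hypothalamus. The pituitary level was higher in 8 of 8 birds at 3 weeks and in 8 of 8 at 6 weeks, by 5.003 to 483-fold. The lowest ratio was that of LGR 3-week replicate 4, and without this bird it was 9.33. The log2 difference was 5.63 (SE 0.33, adjusted p = 2.25e-15).

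BCO1, the carotene-cleaving enzyme (ENSGALG00000005408, chromosome 11, 15677760 to 15691537), ran from 24.1 to 47.8 CPM (median 35.9) in the pituitary and from 3.13 to 16.0 CPM (median 5.69) in the hypothalamus. The tissues did not overlap, and the log2 difference was 2.42 (SE 0.14, adjusted p = 1.53e-15). CYP26A1, which inactivates retinoic acid (ENSGALG00000033695, chromosome 6, 20555766 to 20558838), was the least counted of the members in the hypothalamus, with 8 to 18 counts per library (0.543 to 1.12 CPM). In the pituitary it had 22 to 78 counts (1.89 to 5.16 CPM), a log2 difference of 2.15 (SE 0.13, adjusted p = 3.04e-15). Neither gene had a pituitary library within the range of the hypothalamus. For groups without overlap, 3 of the 7 members stand beside 31.6% of all genes tested.

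RARB, the retinoic acid receptor beta (ENSGALG00000011298, chromosome 2, 37655934 to 37978166), ran from 10.1 to 37.4 CPM (median 30.4) in the pituitary and from 8.41 to 14.8 CPM (median 10.5) in the hypothalamus. It was higher in the pituitary in all 16 birds, with a log2 difference of 1.47 (SE 0.10, adjusted p = 1.77e-13). The tissues overlapped only through the pituitary of LGR 3-week replicate 4, at 10.1 CPM, since the next lowest pituitary library had 23.4 CPM. Without that bird the difference was 1.5.

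Of the other retinoic acid-making enzymes, ALDH1A2 (ENSGALG00000004270, chromosome 10, 7045146 to 7260351) was lower in the pituitary, at 0.938 to 12.1 CPM (median 5.51) against 10.98 to 35.4 CPM (median 17.5) in the hypothalamus. The pituitary value was the lower one in all 16 birds. The log2 difference was -1.57 (SE 0.18, adjusted p = 5.06e-09), and -1.56 without LGR 3-week replicate 4, whose pituitary gave the lowest value on a count of 4. The next lowest pituitary value was 3.10 CPM. ALDH1A1 (ENSGALG00000015147, chromosome Z, 35893999 to 35947479) ran from 12.8 to 67.9 CPM (median 30.2) in the pituitary and from 7.95 to 197 CPM (median 50.2) in the hypothalamus. Its log2 difference over both ages was -0.87 (SE 0.23, adjusted p = 0.00102), an average of unlike ages that is taken apart further on.

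CRABP1, the cytoplasmic retinoic acid-binding protein (ENSGALG00000003193, chromosome 10, 3636152 to 3649050), was the member not called. It had 4.48 to 8.05 CPM (median 6.31) in the hypothalamus and 1.73 to 11.5 CPM (median 6.87) in the pituitary, with a log2 difference of -0.07 (SE 0.22, adjusted p = 0.781). The pituitary level was the higher one in 4 of 8 birds at each age. Its spread was wider in the pituitary, with a standard deviation of 3.13 CPM over 16 libraries against 1.06 CPM in the hypothalamus.

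Of 45 further genes of the retinoid pathway that were listed, 28 were found and tested. Between the tissues 10 were called higher and 9 lower in the pituitary, which is 19 of 28 beside the 53.5% of all genes. The median log2 difference over the 28 was -0.08, against 0.05 over all genes. Higher in the pituitary were BCO2 (2.24, SE 0.05), the second carotene-cleaving enzyme, MEIS2 (2.20, SE 0.08), a homeobox gene, STRA6 (1.95, SE 0.16), the membrane receptor that takes up retinol, TGM2 (1.83, SE 0.13), a transglutaminase that retinoic acid induces in mammals, and RDH10 (1.68, SE 0.08), which makes retinal from retinol in the step before the ALDH1A enzymes.

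The lower side held RBP3 (log2 difference -5.43, SE 0.34) and RPE65 (-3.89, SE 0.22), proteins of the retinal visual cycle, RXRG (-3.78, SE 0.24), a partner receptor of the retinoic acid receptors, and FABP5 (-3.29, SE 0.08), which can carry retinoic acid to another nuclear receptor. CYP1B1 (-2.10, SE 0.19), an oxidase that can act on retinoids, was lower too. Mean levels in pituitary and hypothalamus were 0.0183 and 1.17 CPM for RBP3, 0.645 and 8.50 CPM for RXRG, and 0.847 and 13.1 CPM for RPE65. RBP3 could pass the filter on low counts only through the hypothalamus, so the direction of its call was fixed in advance. RXRG was too low to be tested between growth groups in the pituitary at either age. These 10 genes, the widest differences among the 19 called, had adjusted p-values of 4.27e-11 or less in edgeR's test. Outside the tissue comparison edgeR called 0 of the 24 to 28 genes tested in each comparison. The count at an unadjusted p under 0.05 was highest between the ages in the hypothalamus, at 10 of 28, and lowest, at 1, between growth groups in the 3-week pituitary and for growth by age in the pituitary. Over all genes tested the share at that p was 24.2% between the ages in the hypothalamus, 2.62% between growth groups in the 3-week pituitary and 4.48% for growth by age in the pituitary. DESeq2 was not tabulated for these genes there.

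The age comparison in the hypothalamus set 8 libraries at 6 weeks against 8 at 3 weeks. Here 2 of the 7 retinoid genes were called, ALDH1A1 and ALDH1A3, both lower at 6 weeks, beside 0.623% of all 15414 genes tested and 0.363% called lower. All 7 log2 differences were below 0, with a median of -0.44 against -0.01 over all genes.

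ALDH1A1 in the hypothalamus of 3-week-old LGR birds measured 197, 190, 183 and 135 CPM in replicates 1 to 4, and in 6-week-old LGR birds 19.5, 26.0, 69.4 and 35.7 CPM. In HGR birds it measured 96.3, 62.1, 91.3 and 21.6 CPM at 3 weeks and 38.3, 22.3, 22.7 and 7.95 CPM at 6 weeks. The ages did not overlap within the LGR group, as in 13.4% of all genes, and overlapped within the HGR group through replicate 4 at 3 weeks. Without that library the log2 difference was -2.04. ALDH1A1 fell from 122 ± 64.8 to 30.2 ± 18.4 CPM (SD, n = 8), a log2 difference of -1.89 (SE 0.34, adjusted p = 0.0139 in edgeR). The call was kept in each of the 16 fits that left out 1 library, with adjusted p-values from 0.00397 to 0.0426.

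ALDH1A3 in the hypothalamus measured 29.7, 31.5, 45.2 and 5.98 CPM in 3-week-old HGR birds and 8.04, 9.73, 4.96 and 6.16 CPM in 6-week-old HGR birds. In LGR birds it measured 19.4, 104, 62.4 and 73.9 CPM at 3 weeks and 6.84, 2.92, 24.2 and 2.17 CPM at 6 weeks. The ages overlapped in both growth groups, through HGR 3-week replicate 4 and LGR 6-week replicate 3. ALDH1A3 fell from 46.6 ± 32.2 to 8.13 ± 6.97 CPM (SD, n = 8), a log2 difference of -2.39 (SE 0.49, adjusted p = 0.0295 in edgeR).

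The ALDH1A3 call was lost in 9 of the 16 fits without 1 library, with log2 differences that stayed below 0. These were the fits without HGR 3-week replicate 1 (adjusted p = 0.0570), 2 (0.0611) or 3 (0.0549), without HGR 6-week replicate 2 (0.0570), 3 (0.0557) or 4 (0.0745), and without LGR 6-week replicate 1 (0.0507), 2 (0.0607) or 4 (0.0513). Over these and the other 7 fits the log2 difference ran from -2.98 to -2.23.

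Some lists of markers of other cells were lower at 6 weeks as well, and others were higher. The summed level of 7 pituitary endocrine markers (hormone genes such as POMC, CGA, TSHB and FSHB, and transcription factors) in the hypothalamus libraries ran from 74.0 to 392 CPM in HGR and 357 to 960 CPM in LGR birds at 3 weeks, and from 38.8 to 224 CPM and 60.2 to 518 CPM at 6 weeks, against 60510 to 173138 CPM in the pituitary. Of the 6 endocrine markers tested, 6 had a lower value at 6 weeks (median log2 difference -1.37) and 0 were called. FSHB and PITX1 were at 0 in 3 of the 16 hypothalamus libraries each. POMC is also made by neurons of the hypothalamus, and CGA and TSHB by the pars tuberalis, the part of the pituitary that lies against the brain.

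The same held for 10 of 10 meninges and fibroblast markers (median -0.87, 0 called), whose summed level ran from 470 to 979 CPM in HGR and 625 to 1940 CPM in LGR birds at 3 weeks and from 318 to 1001 CPM and 254 to 884 CPM at 6 weeks. Both blood markers, HBA1 and HBAD, were called lower at 6 weeks. The 7 markers of tanycytes and ependyma, the cells that line the brain ventricle, were called in neither direction (3 higher, 4 lower, median -0.08). Higher at 6 weeks were 8 of 9 neuron markers (median 0.28, 0 called) and 5 of 5 astrocyte markers (median 0.35, 1 called). So were 3 of 3 choroid plexus markers (median 0.66, 0 called). Of the 9 hypothalamus markers 7 were lower (median -0.38), with 1 called in each direction. The part of these cells in the change of ALDH1A1 and ALDH1A3 was not tested.

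Mean ALDH1A3 in the hypothalamus was 4.99% at 3 weeks and 0.871% at 6 weeks of its mean over all 16 pituitary libraries. The corresponding shares were 0.725% and 0.214% for CGA, 0.384% and 0.163% for POMC, 0.394% and 0.104% for TSHB, 0.729% and 0.237% for PITX1, and 0.0233% and 0.0115% for FSHB. The ALDH1A3 share was thus above that of these 5 endocrine genes at both ages. TBX19 stood at 2.37% and 1.46%.

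**Figure D2:**
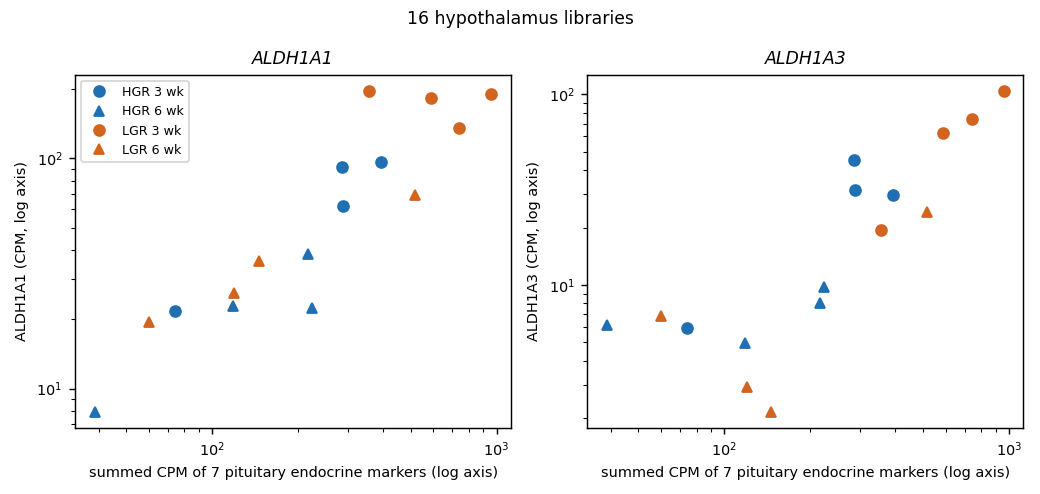
CPM of ALDH1A1 and ALDH1A3 in each of the 16 hypothalamus libraries against the summed CPM of 7 pituitary endocrine markers in the same library (all axes log), by growth group (colour) and age (symbol). The 3-week LGR libraries lie highest for ALDH1A1 (135 to 197 CPM). They overlap other groups for ALDH1A3 (19.4 to 104 CPM) and in the markers (357 to 960 CPM). HGR 3-week replicate 4 lies among the 6-week libraries at 74.0 CPM of markers.

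The other 5 genes had age differences in the hypothalamus that were not called. ALDH1A2 had 20.7 ± 6.48 CPM at 3 and 15.2 ± 3.05 CPM at 6 weeks (SD, n = 8), a log2 difference of -0.44 (SE 0.15, adjusted p = 0.103 in edgeR). BCO1 had 7.90 ± 4.48 and 5.64 ± 2.26 CPM (-0.44, SE 0.25). RARB, CYP26A1 and CRABP1 had log2 differences of -0.14 (SE 0.10), -0.06 (SE 0.20) and -0.01 (SE 0.13).

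In the pituitary 0 of the 7 genes were called between the ages, beside 0.0262% of all 15280 genes. In edgeR's test 2 of them had an unadjusted p under 0.05, as had 10.6% of all genes, and DESeq2 called 0. BCO1 measured 39.02, 47.8, 40.5 and 47.1 CPM in 3-week-old HGR birds and 29.2, 24.4, 24.1 and 27.1 CPM in 6-week-old HGR birds, ages that did not overlap, as in 8.32% of all genes. In LGR birds it measured 36.2, 37.8, 40.4 and 33.8 CPM at 3 weeks and 35.7, 37.5, 34.2 and 24.7 CPM at 6 weeks, where the ages overlapped. The log2 difference was -0.45 (SE 0.09, adjusted p = 0.0891), a 1.37-fold change. Adjusted p was 0.000572 with DESeq2 and 0.0378 without LGR 3-week replicate 4, but the change was below 1.5-fold in each fit.

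ALDH1A1 in the pituitary measured 18, 18.1, 13.8 and 12.8 CPM in 3-week-old and 29.7, 16.5, 30.7 and 67.9 CPM in 6-week-old HGR birds. In LGR birds it measured 24.4, 18.5, 40.0 and 51.3 CPM at 3 weeks and 53.5, 48.5, 65.0 and 31.4 CPM at 6 weeks. The ages overlapped in both groups, and the log2 difference was 0.89 (SE 0.27, unadjusted p = 0.00471, adjusted p = 0.235). Pituitary ALDH1A3 had 1014 ± 373 CPM at 3 and 852 ± 238 CPM at 6 weeks (SD, n = 8), a log2 difference of -0.25 (SE 0.22). ALDH1A2, CYP26A1, CRABP1 and RARB had log2 differences between -0.17 and 0.14.

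The age difference of ALDH1A1 was compared between the tissues by an interaction term over the 32 libraries. In this fit, which did not pair the tissues of a bird, ALDH1A1 was the only gene of 16169 called (0.00618%). Its log2 difference of differences was 2.80 (SE 0.46, adjusted p = 0.0234 in edgeR). The pituitary level was below the hypothalamus level in 8 of 8 birds at 3 weeks and in 4 of 8 birds at 6 weeks. Over all 8 birds of an age, the ratio of pituitary to hypothalamus ran from 0.0972 to 0.593 at 3 weeks. At 6 weeks it ran from 0.739 to 8.54. The highest ratio was that of HGR 6-week replicate 4, with 7.95 CPM in the hypothalamus and 67.9 CPM in the pituitary.

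With the bird as a block, the pairing that both tissues of a bird give, the ALDH1A1 value was 2.77 and the call was lost (adjusted p = 0.0840). That paired fit called 2 genes over all, and 0 of the 7 members. DESeq2 called ALDH1A1, with the lowest adjusted p of the alternatives (5.04e-06). The call was also lost in 9 of the 16 fits without 1 bird: HGR 3-week replicate 1 (adjusted p = 0.0805), 2 (0.0758) or 3 (0.156), HGR 6-week replicate 3 (0.0852) or 4 (0.0604), LGR 3-week replicate 2 (0.0632) or 3 (0.0846) and LGR 6-week replicate 1 (0.0570) or 2 (0.120). Over the 16 fits the value ran from 2.39 to 3.01.

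ALDH1A3 had a difference of differences of 2.15 (SE 0.55, adjusted p = 0.227), called only in the fit without LGR 6-week replicate 3 (2.78, adjusted p = 0.0184). The other 5 genes had values between -0.11 and 0.39, none called. Of the markers, 7 of 7 endocrine markers had a positive value (median 1.13) and so had 7 of 7 tanycyte and ependyma markers (median 0.48). The same held for 8 of 9 hypothalamus markers (median 0.88), 9 of 10 meninges and fibroblast markers (median 0.59) and both blood markers (median 1.03). Negative values were found for 7 of 7 leukocyte markers (median -0.18) and 3 of 3 choroid plexus markers (median -0.10). So they were for 3 of 4 endothelium markers (median -0.08) and 3 of 5 astrocyte markers (median -0.11). In all these lists 0 markers were called. Their part in the ALDH1A1 result was not tested.

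**Figure D3:**
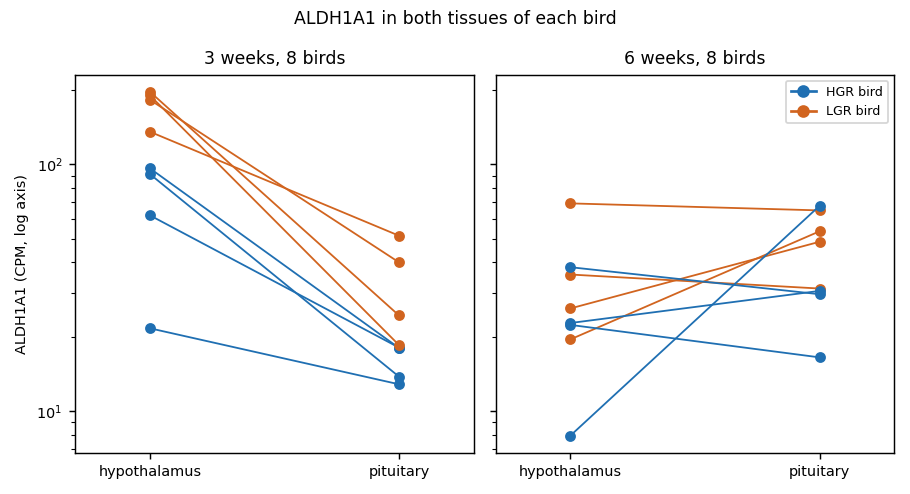
ALDH1A1 (CPM, log axis) in the hypothalamus and pituitary of each bird, joined by a line, for 8 birds at 3 and 8 at 6 weeks, coloured by growth group. All lines fall from hypothalamus to pituitary at 3 weeks (hypothalamus 21.6 to 197 CPM, pituitary 12.8 to 51.3 CPM), and 4 of 8 do at 6 weeks.

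Over the 8 groups, mean ALDH1A1 was highest in the hypothalamus of 3-week-old LGR birds (176 ± 27.8 CPM, SD, n = 4), followed by the hypothalamus of 3-week-old HGR birds (67.8 ± 34.3 CPM), the pituitary of 6-week-old LGR birds (49.6 ± 13.98 CPM), the hypothalamus of 6-week-old LGR birds (37.7 ± 22.2 CPM) and the pituitary of 6-week-old HGR birds (36.2 ± 22.1 CPM). The pituitary of 3-week-old LGR birds (33.6 ± 14.9 CPM, or 27.6 CPM without replicate 4), the hypothalamus of 6-week-old HGR birds (22.8 ± 12.4 CPM) and the pituitary of 3-week-old HGR birds (15.7 ± 2.76 CPM) came last. In this order only the first group was clear of its neighbour, and every other pair of neighbours overlapped.

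For ALDH1A3 the 4 pituitary groups (means of 1121, 954, 907 and 750 CPM in 3-week HGR, 6-week LGR, 3-week LGR and 6-week HGR birds) overlapped each other. Without replicate 4 the 3-week LGR mean was 1086 CPM. The hypothalamus groups followed with 65.0 CPM (3-week LGR), 28.1 CPM (3-week HGR), 9.04 CPM (6-week LGR) and 7.22 CPM (6-week HGR), and these neighbours overlapped too. The gap between the tissues was the only clear step.

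The growth groups were set against each other in each tissue at each age, 4 birds against 4. None of the 7 genes was called in any of the 4 comparisons in edgeR or in DESeq2. The background was 0% of the genes tested in the hypothalamus at 3 weeks, 0.134% in the hypothalamus at 6 weeks, 0% in the pituitary at 3 weeks and 0% in the pituitary at 6 weeks. Members with an unadjusted p under 0.05 numbered 2, 2, 1 and 1 of 7 in this order, beside 5.81%, 18.6%, 2.62% and 6.77% of all genes tested.

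In the hypothalamus at 3 weeks ALDH1A1 had 176 ± 27.8 CPM (LGR) against 67.8 ± 34.3 CPM (HGR; SD, n = 4). All 4 LGR values given above lay above all 4 HGR values, as in 3.13% of all genes in either direction, and it was the only member whose groups did not overlap there. The log2 difference was 1.38 (SE 0.36, unadjusted p = 0.00326, adjusted p = 0.773 in edgeR), and 1.08 to 1.59 with 1 library left out. At 6 weeks LGR birds had 37.7 ± 22.2 and HGR birds 22.8 ± 12.4 CPM, groups that overlapped (0.73, SE 0.47). In that comparison 3 of 4 thalamus markers were lower in LGR birds, 2 of them called (median -2.07), and 9 of 9 hypothalamus markers (median 0.38) and 7 of 7 leukocyte markers (median 0.88) were higher, with 0 called. Their part in the values of ALDH1A1 and BCO1 at 6 weeks was not tested.

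ALDH1A3 had 65.0 ± 35.2 CPM (LGR) against 28.1 ± 16.3 CPM (HGR) at 3 weeks (SD, n = 4), which overlapped, with a log2 difference of 1.21 (SE 0.56, adjusted p = 0.856 in edgeR). At 6 weeks its log2 difference of 0.34 (SE 0.65) became -0.85 without LGR replicate 3, the library at 24.2 CPM, and -0.25 with the replicate number as a block. BCO1 in the hypothalamus had log2 differences of 0.93 (SE 0.37, unadjusted p = 0.0292) at 3 weeks and 0.63 (SE 0.27, unadjusted p = 0.0415) at 6 weeks. Its highest 3-week values were 13.8 and 16.0 CPM in LGR replicates 2 and 4, while the other 2 LGR libraries, at 5.70 and 6.01 CPM, lay within the HGR range of 3.13 to 6.65 CPM.

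In the hypothalamus at 3 weeks, 6 of 6 endocrine markers tested (median log2 difference 1.15), 10 of 10 meninges and fibroblast markers (median 0.61) and 7 of 7 tanycyte and ependyma markers (median 0.53) were also higher in LGR birds, with 0 called. So were 7 of 7 leukocyte markers (median 0.29), while 9 of 9 neuron markers were lower (median -0.33), again with 0 called. Summed tanycyte and ependyma markers ran from 1478 to 2074 CPM in the LGR libraries and from 715 to 1408 CPM in the HGR libraries. HGR replicate 4, the lowest of its group in ALDH1A1 and ALDH1A3, had the lowest endocrine sum (74.0 CPM) and the highest sum of 4 thalamus markers (154 CPM, against 40.9 to 73.3 CPM in the other 3 HGR libraries). The part of tissue sampling in these differences was not tested.

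ALDH1A2, RARB, CYP26A1 and CRABP1 in the hypothalamus had log2 differences between LGR and HGR birds from -0.33 to 0.34 at both ages. RARB at 6 weeks had 9.07 ± 0.90 CPM (LGR) against 11.2 ± 0.987 CPM (HGR; SD, n = 4), with a log2 difference of -0.30 (SE 0.11, unadjusted p = 0.0247, adjusted p = 0.203 in edgeR). The groups overlapped between 10.1 and 10.3 CPM.

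In the pituitary at 3 weeks ALDH1A1 had 33.6 ± 14.9 CPM (LGR) against 15.7 ± 2.76 CPM (HGR; SD, n = 4). The lowest LGR library (18.5 CPM) lay just above the highest HGR library (18.1 CPM), and 2.47% of all genes had groups without overlap in either direction. The log2 difference was 1.10 (SE 0.32, unadjusted p = 0.00762, adjusted p = 0.963 in edgeR), and 0.82 without LGR replicate 4. At 6 weeks it was 0.47 (SE 0.38) and the groups overlapped. In both tissues and at both ages the fitted LGR value of ALDH1A1 was the higher one, with the call missed in all 4 comparisons.

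RARB, ALDH1A2 and ALDH1A3 in the pituitary at 3 weeks turned on LGR replicate 4. RARB had 30.3, 31.1, 29.7 and 10.1 CPM in the LGR libraries and 26.1, 37.4, 27.8 and 29.1 CPM in the HGR libraries. Its log2 difference of -0.23 (SE 0.32) was 0.01 without replicate 4, that of ALDH1A2 went from -0.17 (SE 0.49) to 0.12, and that of ALDH1A3 from -0.30 (SE 0.37) to -0.05. BCO1 in the 6-week pituitary had 33.0 ± 5.71 CPM (LGR) against 26.2 ± 2.41 CPM (HGR; SD, n = 4), groups that overlapped, with a log2 difference of 0.35 (SE 0.13, unadjusted p = 0.0276, adjusted p = 0.673 in edgeR). The remaining pituitary differences ran from -0.73 (SE 0.49, CRABP1 at 3 weeks) to 0.36 (SE 0.20, ALDH1A3 at 6 weeks). That of CRABP1 at 3 weeks ran from -1.01 to -0.46 with 1 library left out.

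**Figure D4:**
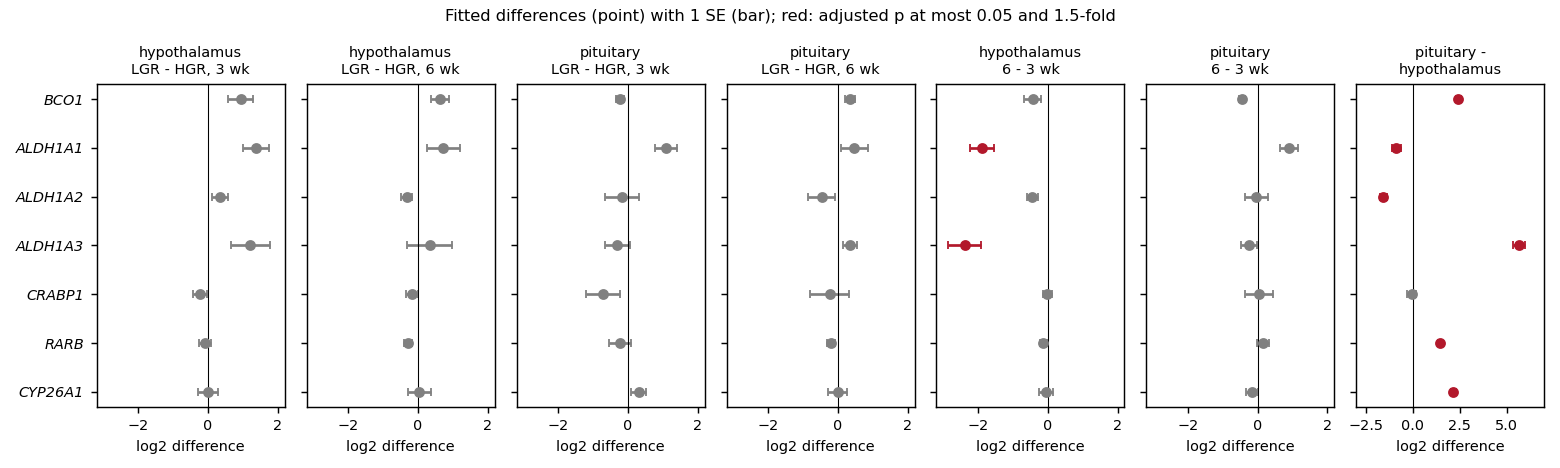
Fitted log2 differences (points) with 1 SE (bars) of the 7 retinoid genes in 7 comparisons, red where called. The 6 tissue differences and the age differences of ALDH1A1 (-1.89) and ALDH1A3 (-2.39) in the hypothalamus are red, and none of the growth rate differences is.

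Whether the growth rate difference itself changed with age was tested by an interaction in each tissue. None of the 7 genes was called in the hypothalamus, beside 0.00649% of all genes, or in the pituitary, beside 0%, in edgeR or in DESeq2. In each tissue 1 member had an unadjusted p under 0.05, as had 5.53% of all genes in the hypothalamus and 4.48% in the pituitary. In the hypothalamus it was ALDH1A2 (-0.69, SE 0.30, unadjusted p = 0.0391), which had 23.2 ± 8.87 CPM (LGR) against 18.2 ± 1.72 CPM (HGR) at 3 weeks and 13.4 ± 2.94 and 17.0 ± 2.15 CPM at 6 weeks (SD, n = 4, edgeR). In the pituitary it was BCO1 (0.57, SE 0.18, unadjusted p = 0.00590), lower in LGR than in HGR birds at 3 weeks (37.04 ± 2.81 against 43.6 ± 4.51 CPM) and higher at 6 weeks, as given above.

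CRABP1, RARB and CYP26A1 showed little order over the groups within a tissue. Mean CRABP1 in the hypothalamus lay between 5.70 CPM (3-week LGR) and 6.72 CPM (3-week HGR). In the pituitary it lay between 4.63 CPM (3-week LGR, or 3.84 CPM without replicate 4) and 7.53 CPM (3-week HGR). Single pituitary libraries of a group differed several-fold in CRABP1, as in 6-week HGR birds at 9.06, 1.73, 3.53 and 11.5 CPM. Mean RARB ran from 9.07 CPM (6-week LGR) to 11.4 CPM (3-week HGR) in the hypothalamus and from 25.3 CPM (3-week LGR) to 33.1 CPM (6-week HGR) in the pituitary. Without replicate 4 the 3-week LGR mean was 30.4 CPM, and the lowest pituitary group was then 6-week LGR at 28.6 CPM. Mean CYP26A1 ran from 0.760 CPM (6-week HGR) to 0.806 CPM (3-week HGR) in the hypothalamus and from 3.29 CPM (6-week LGR) to 4.20 CPM (3-week LGR) in the pituitary.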

How the data were processed

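RNA from both tissues was prepared with an unstranded TruSeq kit, so reads of a gene and of an overlapping antisense gene cannot be told apart. Reads were aligned and quantified by the authors with RSEM, and the deposited table holds raw whole-number counts per Ensembl gene for 32 libraries, with 0 columns unmapped. The submitters' processing notes also name CASAVA 1.8.2, FastQC, Bowtie2 and DESeq2. A deposited DESeq2 table per tissue was used only for symbols (10132 genes) and coordinates. Its mean, fold change and p-value columns were not used. Coordinates come without a named genome build. Groups were taken from the labels, where the growth group stands under a tag named shear force. The study left libraries out of its own fits, and all were kept here.

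Counts were fitted with edgeR 4.0.16 (R 4.3.3; TMM scaling, minimum count 10, minimum total 15, prior count 2 for log2 CPM). Each growth comparison used its 8 libraries, age comparisons and growth by age the 16 of a tissue, and tissue comparisons all 32. The script was tested on simulated data. Alternatives were DESeq2 1.42.0, RLE scaling, no filter, adjusted p alone, a replicate block, one fit over 16 libraries and leaving out each library or bird. Same-numbered samples of the tissues are the same bird by their labels (deviations correlated at r = 0.109 to 0.48, above 0.1 in 16 of 16 birds). Between growth groups the numbers mark different birds. Replicates of a group differed by more than counting noise in 48 of 48 pairs (chi-square per gene 8.14 to 180). The genes and lists were chosen with earlier results of these data known. Named were all members found, the 10 widest differences among called pathway genes, and, from the 3 genes most correlated with each member in each tissue, all or the first, with some results not reported here.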

Additional observations from a re-analysis of the deposited data

Results flagged for a closer look

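In 56 groups of 4 libraries (7 genes in 8 groups), 4 had a library far from the other 3, and chance flags about 1 group in 20. ALDH1A3 in the pituitary of 6-week LGR birds was highest in replicate 2, at 1408 CPM against 778 to 840 CPM. CYP26A1 in the pituitary of 6-week HGR birds was lowest in replicate 2, at 2.33 CPM against 3.57 to 3.71 CPM. RARB in the pituitary of 3-week LGR birds was lowest in replicate 4, at 10.1 CPM against 29.7 to 31.1 CPM. That library has the lowest total of all. RARB in the hypothalamus of 3-week HGR birds was lowest in replicate 2, at 10.9 CPM, but the others lay close by at 11.6 CPM.

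The age difference of ALDH1A1 differed between the tissues by the interaction term, 2.80 on the log2 scale, a call that the bird block and 9 of 16 fits without 1 bird did not keep.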

How the results depend on the processing

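The 6 tissue calls were kept in all 16 fits without 1 bird and in the other alternatives, and the ALDH1A1 age call in the hypothalamus in all 16 fits without 1 library and in the others. Members called between the ages in the hypothalamus numbered 1 to 2 without 1 library, and for tissue by age 0 to 2 without 1 bird and 0 with the replicate block (the bird). The block changed no other member call. ALDH1A3 between growth groups at 6 weeks in the hypothalamus turned from 0.34 to -0.25 with the replicate block and ran from -0.85 to 0.67 without 1 library. Over the 7 members in each comparison and the 10 named pathway genes, 1392 values kept direction and side of the threshold, 19 lost a call, 1 gained one and 72 reversed. The reversals fell in 20 of 80 gene results, whose reported log2 differences were at most 0.34 in size and not called.

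Without 1 library or bird, the log2 differences of these results ran as follows. CYP26A1 ran from -0.10 to 0.0854 (hypothalamus growth, 3 weeks), -0.20 to 0.17 (6 weeks), -0.17 to 0.0127 (age), -0.19 to 0.17 (growth by age), -0.17 to 0.18 (pituitary growth, 6 weeks) and -0.26 to 0.10 (tissue by age). CRABP1 ran from -0.0855 to 0.0409 (hypothalamus age), -0.0375 to 0.22 (growth by age), -0.55 to 0.19 (pituitary growth, 6 weeks), -0.19 to 0.18 (pituitary age), -0.17 to 0.0114 (tissue) and -0.16 to 0.21 (tissue by age). RARB ran from -0.27 to 0.0012 (hypothalamus growth, 3 weeks), -0.34 to 0.0131 (pituitary growth, 3 weeks) and -0.21 to 0.13 (pituitary growth by age). ALDH1A2 in the pituitary ran from -0.64 to 0.12 (growth, 3 weeks), -0.26 to 0.19 (age) and -0.59 to 0.15 (growth by age), and BCO1 from -0.17 to 0.11 (tissue by age). CRABP1 was -0.0282 (pituitary age) and -0.0208 (tissue by age) with the replicate block, CYP26A1 0.0009 (hypothalamus growth, 3 weeks) in one fit over 16 libraries and BCO1 0.0018 (tissue by age) with no filter.

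Counts over all genes moved more; the cause was not tested. With DESeq2 they were 21 (hypothalamus growth, 3 weeks, from 0), 165 (6 weeks, from 20), 232 (age, from 96) and 21 (growth by age, from 1), and in the pituitary 6, 49, 165 and 22 (from 0, 0, 4 and 0), with 37 for tissue by age (from 1). With adjusted p alone, hypothalamus growth at 6 weeks gave 85, age 356 and tissue 12992 (from 8646). One fit over 16 libraries gave 4 and 0 for hypothalamus growth at 3 and 6 weeks. No filter gave 63 for hypothalamus age and 2 for growth by age, and RLE scaling 5 for tissue by age. The replicate block gave 3 for hypothalamus growth at 6 weeks, 0 for its growth by age, 1 for pituitary age and 2 for tissue by age. Numbers are of different birds between growth groups and ages, where 3 of 16 and 4 of 16 pairs correlated above 0.1.

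Without 1 library the counts ran from 0 to 1 (hypothalamus growth, 3 weeks), 0 to 24 (6 weeks), 27 to 354 (age; lowest without HGR 6-week replicate 4, highest without HGR 3-week replicate 4), 0 to 8 (growth by age), and in the pituitary 0 to 1, 0 to 1, 0 to 26 (age; highest without LGR 3-week replicate 4) and 0 to 2, with 0 to 14 for tissue by age. CYP26A1 in the hypothalamus rests on 8 to 18 counts per library, which limits what differences could be seen there.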

Other observations

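Deviations of each library from its group mean (log2 CPM, 16 libraries of a tissue) were compared between genes as a description. Differences in depth and in the cells sampled reach all genes of a library. Leaving out the 2 libraries farthest from the median was chosen after seeing the data. In the hypothalamus ALDH1A1 went with the endocrine marker list (Pearson r = 0.82, and 0.68 without the 2 libraries farthest from the median) and against the thalamus list (-0.77, then -0.58). Its nearest genes were FST (0.936), NKX2-1 (0.921), a hypothalamic transcription factor, and POMC (0.920), itself one of the endocrine markers. With the hypothalamus list, which holds NKX2-1, ALDH1A1 had 0.55, then 0.25. It had 0.57, then 0.21, with the tanycyte and ependyma list and -0.57, then -0.35, with the neuron list. ALDH1A3 went with the endocrine list (0.84, then 0.70), and its nearest genes were ESRP2 (0.907), RFX6 (0.902) and CHGA (0.901), a protein of secretory granules.

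ALDH1A2 went with the meninges and fibroblast list in the hypothalamus (0.79, then 0.77) and in the pituitary (0.68, then 0.74). In the hypothalamus RARB (0.73, then 0.68), ALDH1A3 (0.69, then 0.57) and ALDH1A1 (0.64, then 0.67) went with that list too. The other members there had 0.21 (BCO1), 0.25 (CYP26A1) and 0.27 (CRABP1). These genes went with other lists in the hypothalamus as well. RARB had 0.77, then 0.54, with the endothelium list and -0.65, then -0.29, with the hypothalamus list. ALDH1A3 had 0.65, then 0.44, with the tanycyte and ependyma list, and ALDH1A2 0.65, then 0.27, with the endothelium list. In the pituitary ALDH1A2 also went with the endothelium list (0.75, then 0.52) and the astrocyte list (0.64, then 0.66). It went against the endocrine list there (-0.68, then -0.56). Its nearest genes in the hypothalamus were FBLN5 (0.903), an elastic fibre protein, FAP (0.897), a fibroblast protease, and TSKU (0.896), and in the pituitary ECM2 (0.941), CAPN6 (0.935) and ADGRB1 (0.931). BCO1 in the hypothalamus went with the leukocyte list (0.63, then 0.67), with IRG1 (0.864), TRAF3IP3 (0.861) and IST1 (0.858) nearest.

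RARB in the pituitary went with CASK (0.969, then 0.879), KLHL28 (0.966) and ZNF652 (0.965) and with ALDH1A3 (0.85, then 0.65). Its correlation with ALDH1A2 there (0.68) fell to 0.05 without the 2 farthest libraries. In the hypothalamus RARB went with ALDH1A2 (0.84, then 0.55), and its nearest genes included ATP2C1 (0.948) and SLC36A4 (0.873). For the other pairs of gene and tissue the nearest were EPGN (ALDH1A1, pituitary, 0.847), MID1 (ALDH1A3, pituitary, 0.893), GLP1R (BCO1, pituitary, 0.873), TTC26 and COTL1 (CYP26A1, hypothalamus 0.843 and pituitary 0.857), and PACRGL and MCMBP (CRABP1, hypothalamus 0.840 and pituitary 0.814).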
